A study of Mus musculus with 8 samples.

Results

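Transcripts of 10 genes of platelet-derived growth factor (PDGF), vascular endothelial growth factor (VEGF), angiopoietin and hepatocyte growth factor signalling were compared between Lats2-/- and Lats2+/+ mouse embryonic fibroblasts (MEFs). The genes were Pdgfa, Pdgfb, Pdgfc, Pdgfrb, Vegfb, Vegfc, Figf, Angpt1, Angpt2 and Hgf, and every gene probe of the array that carries one of these names was taken, which gave 19 of 41174 gene probes. MEFs are adherent cells grown out from mouse embryos. Both genotypes came from C57BL/6J mice and were kept untreated in DMEM with fetal bovine serum, and the embryonic age was not given in the sources used here. Each of the 3 litters, numbered 112, 116 and 121, gave 1 Lats2-/- and 1 Lats2+/+ culture, each under its own clone name, so that there were 6 RNA extracts. Both extracts of a litter were hybridised together on the same 2-colour arrays with the dyes swapped, on 2 arrays each for litters 112 and 116 and on 4 for litter 121. A log2 ratio below is Lats2-/- over Lats2+/+ within a litter, averaged over its arrays, and a level is the normalized log2 signal of 1 extract. The litter is the replicate (n = 3), and a level is compared only within 1 probe.

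PDGFs are dimeric growth factors for mesenchymal cells. Pdgfa, Pdgfb and Pdgfc encode ligand chains, and Pdgfrb encodes the receptor tyrosine kinase PDGF receptor beta, which fibroblasts, pericytes and smooth muscle cells carry. VEGFs act mainly on endothelial cells: VEGF-B binds VEGFR1 (Flt1), while VEGF-C and VEGF-D, the product of Figf (now named Vegfd), bind VEGFR3 (Flt4) and drive growth of lymphatic vessels. Angiopoietin 1 is an agonist and angiopoietin 2 a context-dependent antagonist of the endothelial receptor Tie2 (Tek). Hgf encodes hepatocyte growth factor, a product of mesenchymal cells whose receptor is Met. LATS2 is a kinase of the Hippo pathway that restrains the transcriptional co-activators YAP and TAZ, which act through TEAD factors.

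The median raw intensity of an array was 60 to 68 in green and 81 to 92 in red, and the Lats2-/- channel was well above background at 53.5% to 60.3% of gene probes. A probe was tested where 2 or 3 extracts of 1 genotype were well above background, and 22642 probes were. Lats2 itself was examined first. Its upstream probe (A_52_P425064) had ratios of -1.30, -1.12 and -0.56 in litters 112, 116 and 121, whereas its 3 downstream probes ranged from -0.72 to -0.16 in the first 2 litters and from 0.81 to 1.17 in litter 121. Which part of Lats2 the allele removes was not given in the sources used here, so the downstream probes may lie outside it. In litter 121 every direction below is therefore that of the extract labelled Lats2-/-. Litters 112 and 116 shared 1 slide and litter 121 had a slide of its own, so that litter 121 and its slide cannot be told apart.

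Of the 10 genes, 7 had a probe that was tested: Pdgfa, Pdgfc, Pdgfrb, Vegfb, Vegfc, Figf and Angpt2. Pdgfb, Angpt1 and Hgf stayed near background in most extracts. For none of the 7 genes did the difference between genotypes exceed the spread between the 3 litters. In limma's moderated test, 0 of them had an adjusted p under 0.05, against 0% of all tested probes, and 0 had an unadjusted p under 0.05, against 7.65% of the 14791 genes taken at their brightest tested probe (1132 genes). All 3 litters gave a ratio of the same sign for 1 of 7 genes, against 30.1% of genes. That gene was Angpt2, whose ratio in litter 112 was -0.001 with its 2 arrays on opposite sides of 0, and whose Lats2-/- extracts in litters 116 and 121 were not well above background. For 0 of 7 were all 3 Lats2-/- levels on the same side of all 3 Lats2+/+ levels, against 6.2% of genes. Sizeable differences were seen in single litters. Figf and Angpt2 differed at least 2-fold in litter 121, and 0 of 7 genes did in litters 112 and 116; over the tested genes, 15.6% did so in 1 or more litters. The median ratio of the 7 genes was 0.06, 0.16 and -0.15 in litters 112, 116 and 121.

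**Figure D1:**
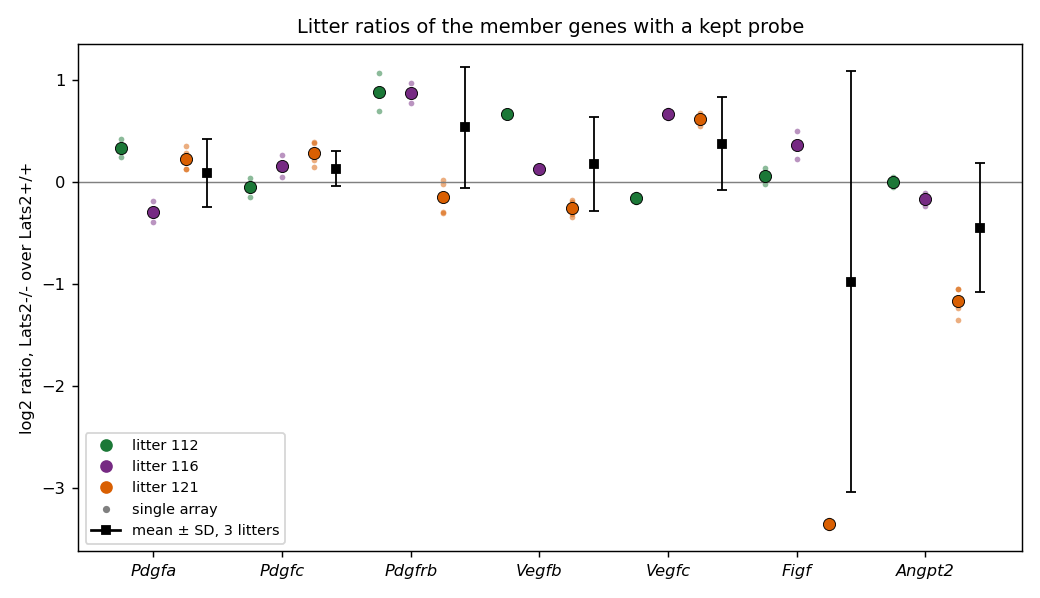
Log2 ratios (Lats2-/- over Lats2+/+, y axis) of the 7 member genes with a tested probe; large points are litters, small points single arrays, and black squares the mean ± SD of 3 litters. Figf at -3.35 in litter 121 lies below the other points. For Angpt2 the Lats2-/- extracts of litters 116 and 121 were not well above background, so that its points there, its mean and its SD rest on background signals.

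Pdgfa encodes the PDGF-A chain, a ligand for PDGF receptor alpha. Its brighter probe (A_51_P370090, chromosome 5, 139230717 to 139230776, minus strand, build mm8, as are all probe positions here) had levels of 13.12, 11.95 and 13.79 in the Lats2-/- extracts and of 12.79, 12.24 and 13.56 in the Lats2+/+ extracts of litters 112, 116 and 121. Both genotypes were highest in litter 121 and lowest in litter 116, and the groups overlapped. The mean level of the 2 extracts of a litter spanned 1.58 log2 units over the litters, while no litter ratio exceeded 0.33 in size. The ratios were 0.33, -0.29 and 0.23, with a mean of 0.09 ± 0.33 (SD, n = 3; adjusted p = 0.929) and a 95% interval of -0.38 to 0.56. Without litter 112 the mean was -0.031, without litter 116 it was 0.28 and without litter 121 it was 0.023. The second probe (A_51_P370099) gave 0.34, -0.29 and 0.13, with the same sign as the first in each litter.

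Pdgfc encodes PDGF-C, a further ligand for PDGF receptor alpha that must be cleaved before it is active. At its brighter probe (A_52_P376360, chromosome 3, 81299577 to 81299636, plus strand) the levels were 11.34, 11.03 and 12.16 in Lats2-/- and 11.39, 10.87 and 11.87 in Lats2+/+ extracts. As for Pdgfa, both genotypes were highest in litter 121 and lowest in litter 116, and the mean level of a litter spanned 1.07 log2 units. The ratios were -0.05, 0.16 and 0.29, and their mean was 0.13 ± 0.17 (SD, n = 3; adjusted p = 0.833; 95% interval -0.20 to 0.46). The mean was 0.22 without litter 112 and 0.054 without litter 121. A neighbouring probe (A_51_P333839) gave -0.02, 0.14 and 0.29. The third Pdgfc probe (A_52_P408629), which lies upstream and carries another transcript accession, was well above background on 1 of 8 Lats2-/- and 1 of 8 Lats2+/+ channels and was not tested.

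Pdgfb, the PDGF-B chain that recruits pericytes to vessels through PDGF receptor beta, was near background. Both of its probes on the minus strand of chromosome 15 were well above background on all 4 Lats2-/- channels and on 1 of 4 Lats2+/+ channels of litter 121, and nowhere else. The levels at A_51_P175262 were 6.04, 6.15 and 6.36 in Lats2-/- and 6.09, 6.06 and 6.20 in Lats2+/+ extracts. Ratios at both probes lay between -0.14 and 0.29, and no test was made.

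Pdgfrb had the smallest p of the members. Its single probe (A_51_P150964, chromosome 18, 61210310 to 61210369, plus strand) had levels of 13.44, 13.62 and 12.94 in Lats2-/- and of 12.56, 12.75 and 13.08 in Lats2+/+ extracts. The Lats2-/- extracts of litters 112 and 116 were above every Lats2+/+ extract, while that of litter 121 was inside the Lats2+/+ range. Ratios of 0.88 and 0.88 in litters 112 and 116, or 1.85-fold and 1.83-fold, stood against -0.15 in litter 121. All 4 arrays of litters 112 and 116 gave ratios between 0.69 and 1.07, and the 4 arrays of litter 121 gave -0.30 to 0.02. The mean was 0.54 ± 0.59 (SD, n = 3; adjusted p = 0.734; 95% interval -0.21 to 1.28), and 7.92% of tested probes had a larger mean in size. Without litter 121 the mean was 0.88. Among the genes whose 3 litter ratios lay nearest to those of Pdgfrb, by Euclidean distance over the 3 litters and between 0.10 and 0.22 away, were Zfp820 (2610036F08Rik on the array), Itm2c, Sept11 and Cmtm3. Itm2c had ratios of 0.89, 0.76 and -0.20.

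**Figure D2:**
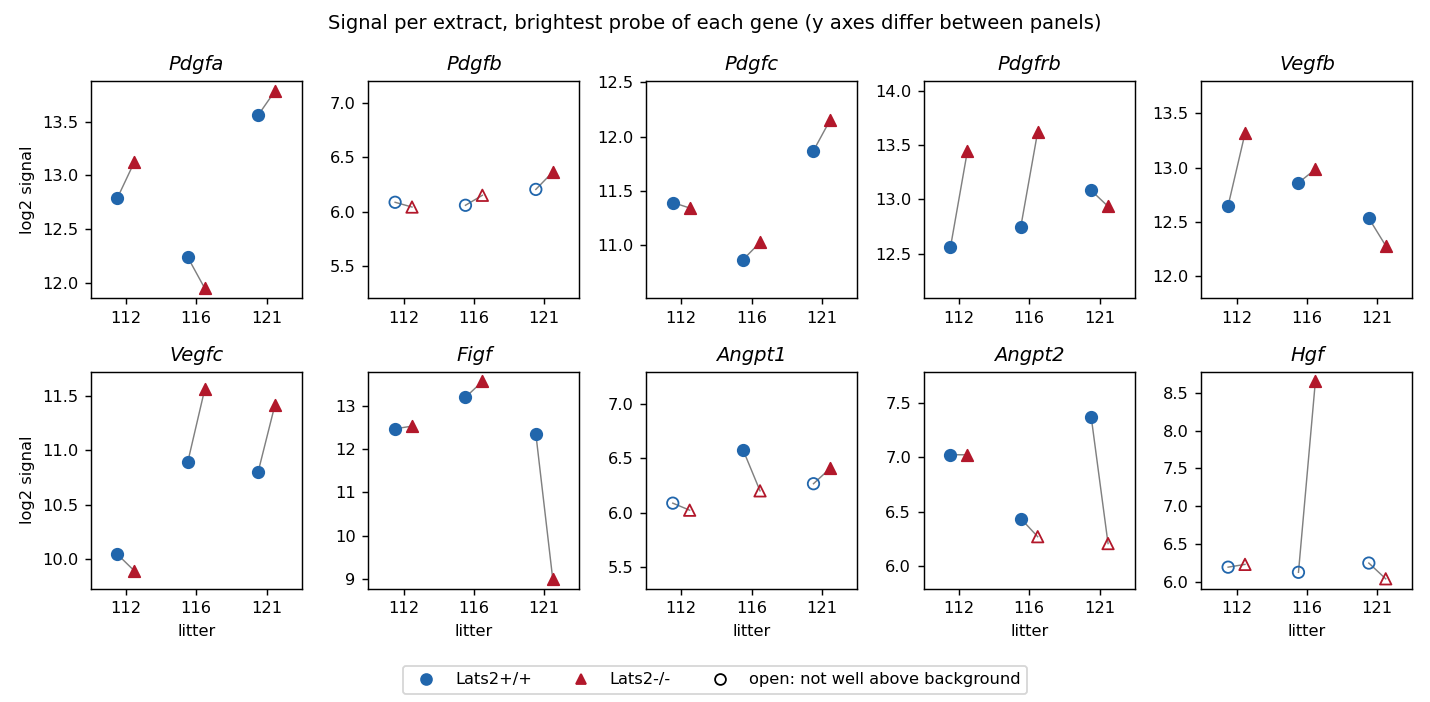
Normalized log2 signal (y axis, range differs between panels) of the brightest tested probe, or brightest probe where none was tested, of each of the 10 genes in the 6 extracts, by litter (x axis); a line joins the 2 extracts of a litter, and open symbols are extracts not well above background on most of their arrays. The Lats2-/- extract of litter 121 stands alone for Figf at 9.01, and the Lats2-/- extract of litter 116 for Hgf at 8.65.

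Among the VEGF ligands, Vegfb had levels of 13.32, 12.99 and 12.28 in Lats2-/- and of 12.65, 12.86 and 12.53 in Lats2+/+ extracts (A_51_P458168, chromosome 19, 7049516 to 7049573, minus strand). The ratio was positive in litter 112 (0.67, or 1.59-fold), near 0 in litter 116 (0.13) and negative in litter 121 (-0.25). Its mean of 0.18 ± 0.46 (SD, n = 3; adjusted p = 0.877) had a 95% interval of -0.43 to 0.78. It was -0.064 without litter 112 and 0.40 without litter 121. A second probe (A_52_P436628) gave 0.67, 0.08 and -0.26, so that both probes placed the litters in the same order.

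Vegfc, the main lymphangiogenic ligand, showed another order of the litters. Its levels were 9.89, 11.56 and 11.42 in Lats2-/- and 10.04, 10.89 and 10.80 in Lats2+/+ extracts (A_51_P433870, chromosome 8, 55684877 to 55684936, plus strand), so that both genotypes were lowest in litter 112. Ratios of 0.67 and 0.62 in litters 116 and 121, or 1.59-fold and 1.54-fold, stood against -0.15 in litter 112. The arrays of a litter differed by at most 0.12. The mean was 0.38 ± 0.46 (SD, n = 3; adjusted p = 0.760; 95% interval -0.22 to 0.98), and without litter 112 it was 0.64.

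Figf, encoding VEGF-D, differed in litter 121. Its levels were 12.53, 13.56 and 9.01 in the Lats2-/- extracts and 12.47, 13.20 and 12.35 in the Lats2+/+ extracts (A_51_P117739, X chromosome, 159746568 to 159746627, plus strand), so that 5 extracts lay between 12.35 and 13.56 and the extract labelled Lats2-/- of litter 121 lay apart from them. In that litter the level was 10.2-fold lower than in the Lats2+/+ extract, with a ratio of -3.35 and all 4 arrays between -3.39 and -3.31. In litters 112 and 116 the ratios were 0.06 and 0.37. The mean of -0.97 ± 2.06 (SD, n = 3; adjusted p = 0.831; 95% interval -3.41 to 1.46) thus rested on 1 litter, and without litter 121 it was 0.21. Of all tested probes, 1.08% had a larger SD over the litters, where the median SD was 0.25.

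RefSeq promoters on GRCm38.p6, each of 250 bases before to 50 after an annotated start, were found for 6 of the 10 genes (8 promoters). The upstream part for Figf (as Vegfd; chrX:164373272-164373521, plus strand, 42.4% G and C) and that of the second of the 2 Hgf starts (chr5:16553651-16553900, plus strand, 51.2% G and C) are shown because a single extract lay apart from the other 5 for these genes. Capitals mark a match to TATAAA.
Figf: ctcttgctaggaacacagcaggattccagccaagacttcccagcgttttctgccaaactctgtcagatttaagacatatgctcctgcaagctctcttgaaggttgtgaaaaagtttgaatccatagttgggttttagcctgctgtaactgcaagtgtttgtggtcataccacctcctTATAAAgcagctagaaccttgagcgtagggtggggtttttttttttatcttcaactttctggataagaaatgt
Hgf: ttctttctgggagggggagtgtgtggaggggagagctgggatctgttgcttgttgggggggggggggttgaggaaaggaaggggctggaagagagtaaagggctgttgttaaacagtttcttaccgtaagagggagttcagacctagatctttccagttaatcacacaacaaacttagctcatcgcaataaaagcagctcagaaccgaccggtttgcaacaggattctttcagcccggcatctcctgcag
On both strands of the 300-base windows, the TATA letters TATAAA were found for Figf but in none of the other 7 member promoters, against 13.6% of the 32851 promoters in the table. The TEAD core letters CATTCC were found only for Pdgfc among the 8 promoters, with 2 matches, against 14.7% of all promoters. The AP-1 letters TGANTCA had no match in the 8, against 7.81% of all promoters. The matches are to letters only.

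Angpt2 was dim, and in litters 116 and 121 its Lats2-/- signal was near background. Its probe (A_51_P201982, chromosome 8, 18691435 to 18691494, minus strand) had levels of 7.02, 6.27 and 6.20 in Lats2-/- and 7.02, 6.44 and 7.37 in Lats2+/+ extracts. It was well above background on 8 of 8 Lats2+/+ channels but on 2 of 8 Lats2-/- channels, both of litter 112, and so was tested through the Lats2+/+ extracts. Where the Lats2-/- extract was not well above background only a bound can be given, namely at least 2.25-fold higher in Lats2+/+ for litter 121 and, for litter 116, at least 1.12-fold. Both bounds equal the measured mean ratios. Single arrays gave log2 ratios of -1.35 to -1.04 in litter 121 and of -0.23 and -0.10 in litter 116. In litter 112, where both extracts were well above background, the ratio was -0.001. The fit over the 3 litters, 2 of which rest on background signals, gave an adjusted p of 0.771.

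Angpt1 was not tested. Its probes (A_52_P160328 and A_52_P574140, minus strand of chromosome 15) had levels between 6.02 and 6.61 in the 6 extracts. In litter 116 both were well above background in the Lats2+/+ extract and on no Lats2-/- array, which gave Lats2+/+ signals at least 1.30-fold higher at the first probe and at least 1.41-fold at the second. In litter 121 both were well above background in the Lats2-/- extract. The Lats2+/+ extract of that litter was above background on 2 of 4 arrays at the first probe and on 1 of 4 at the second, and no direction is given there.

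Hgf was detected in 1 extract. At its most downstream probe (A_51_P484998, chromosome 5, 16130835 to 16130894, plus strand) the Lats2-/- extract of litter 116 had a level of 8.65, while the other 5 extracts lay between 6.05 and 6.25. The level was at least 5.70-fold higher in Lats2-/- than in Lats2+/+ in that litter, and it was well above background on both Lats2-/- channels and neither Lats2+/+ channel. Of the 3 probes upstream, A_52_P435080 gave at least 2.28-fold and A_52_P421815 at least 1.47-fold higher signal in the same extract, and A_52_P489106 was well above background on no array. The last of these and A_52_P421815 carry other transcript accessions than the downstream probes. In litters 112 and 121 the ratios of all 4 probes lay between -0.21 and 0.11. Hgf passed the background criterion in 1 extract only and was not tested.

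Other genes of these pathways were taken from lists of ligands, receptors, processing factors and transducers. Among the 4 other ligands with a tested probe, Pgf, Vegfa, Pdgfd and Mst1, 1 of 4 had an unadjusted p under 0.05 in limma, against 7.65% of all genes. That was Pgf, which encodes placental growth factor, a ligand of VEGFR1. Its ratios were 0.37, 0.51 and 0.56 (mean 0.48 ± 0.10, SD, n = 3; adjusted p = 0.716; 1.14 with Agilent's processed signals), and its Lats2-/- levels of 6.85, 7.02 and 7.13 were all above its Lats2+/+ levels of 6.48, 6.52 and 6.56. The Pgf probe was dim, though well above background in all 3 extracts of each genotype. The unadjusted call of Pgf was lost without litter 121, at a mean of 0.44. All 4 mean ratios were above 0, but Pdgfd and Mst1 were tested through their Lats2-/- extracts, where they were higher, and this count is no support for a direction. Pdgfd, a further PDGF ligand and named after its values were seen, had levels of 8.15, 6.21 and 8.86 in Lats2-/- and 6.43, 6.19 and 6.52 in Lats2+/+ extracts. It was well above background in 2 of 3 Lats2-/- and 1 of 3 Lats2+/+ extracts, so that its ratios of 1.72, 0.02 and 2.34 rest in part on background signals. Over all genes with a tested probe, 7830 mean ratios were above 0 and 6961 below, with a median of 0.01.

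Of 11 receptors and co-receptors, 6 mean ratios were above 0 and 5 below, and 0 had an unadjusted p under 0.05. The median of their means was 0.04. The receptors for the members and Pdgfrl are named here after their values were seen. Pdgfra, the receptor for PDGF-A and PDGF-C, had 0.90 and 0.13 in litters 112 and 116. In litter 121 its Lats2-/- extract was well above background on 2 of 4 arrays only, at a level of 6.30 against 11.21 in the Lats2+/+ extract, so that the ratio of -4.91 rests on a signal at background. Flt1, the receptor for VEGF-B, had -0.76, 1.64 and -2.96. Met, the receptor for hepatocyte growth factor, had 0.01, -0.09 and 1.58. Tek, the angiopoietin receptor, stayed between -0.04 and 0.13 at levels of 6.37 to 6.66. Pdgfrl, a secreted PDGF receptor-like protein, had 4.12, 4.75 and -0.72, and its Lats2+/+ levels of 7.57, 7.44 and 10.704 differed between litters as well. The VEGF receptors Kdr and Flt4 had no tested probe.

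Of 9 genes for ligand processing and inhibition, 6 mean ratios were above 0 and 3 below, and 0 had an unadjusted p under 0.05. Ccbe1, a factor needed for VEGF-C activation and also named after its values were seen, had 0.67, 0.34 and -1.96. Of 17 signal transducers, 9 were above 0 and 8 below, and 2 had an unadjusted p under 0.05, both higher in Lats2-/-, against 7.65% of all genes. These were Plcg1, encoding phospholipase C gamma 1, with 0.81, 0.33 and 0.25 (mean 0.47 ± 0.30), and Gab1, a docking protein downstream of Met, with 0.20, 0.59 and 0.66 (mean 0.49 ± 0.25). Both had an adjusted p of 0.716 in limma (n = 3). The unadjusted call of Plcg1 was lost without any 1 of the litters, where its mean was 0.29 to 0.57, and that of Gab1 without litter 116 or 121, at 0.43 and 0.40. With Agilent's processed signals the mean of Gab1 was 0.79. Of 3 angiopoietin-like genes, 1 was lower at an unadjusted p under 0.05, where the share of all genes, in either direction, is again 7.65%. That was Angptl2, which encodes a secreted glycoprotein, with -0.17, -1.12 and -0.60 (mean -0.63 ± 0.48, SD, n = 3; adjusted p = 0.716 in limma). Its unadjusted call was lost without litter 116, at a mean of -0.38, and without litter 121, at -0.65.

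**Figure D3:**
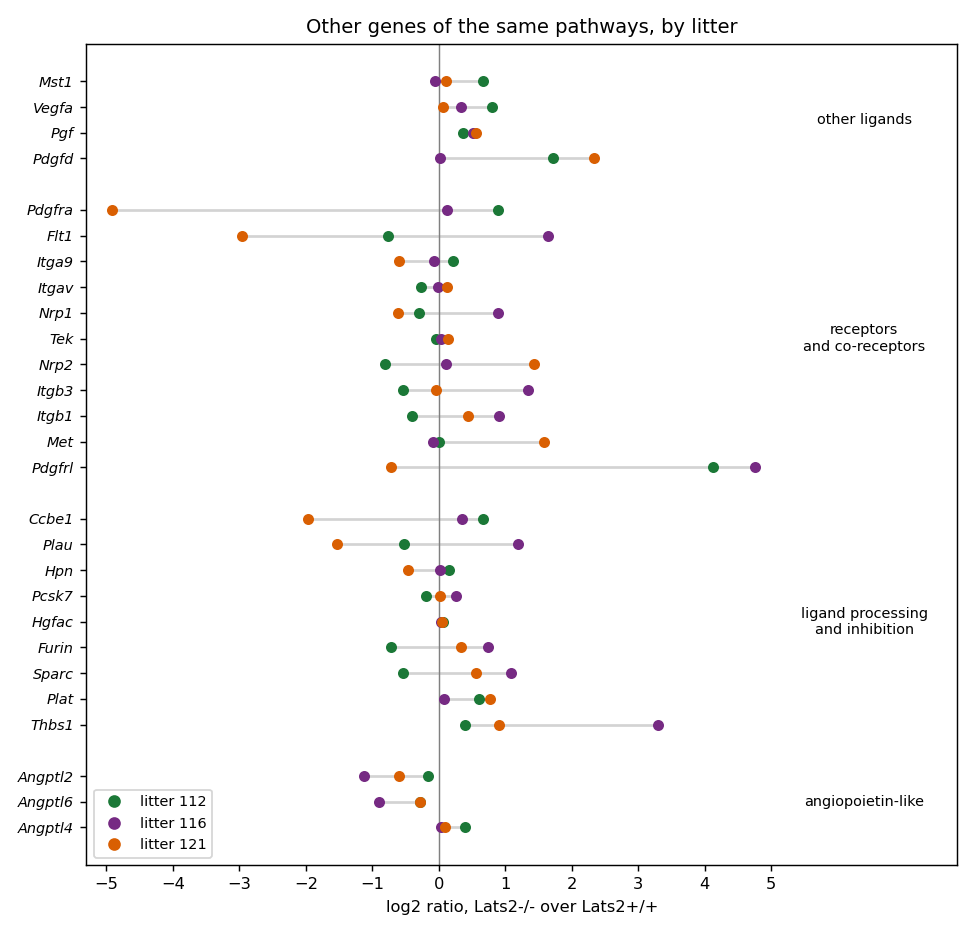
Log2 ratios (Lats2-/- over Lats2+/+, x axis) of the tested ligands, receptors, processing factors and angiopoietin-like genes that are not members, with 1 point per litter. Pgf has its 3 litters between 0.37 and 0.56, whereas Pdgfra, Flt1 and Pdgfrl span several log2 units.

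The labelled cell type was set against marker genes. All 11 fibroblast markers had a tested probe, and their summed linear signal was 254841 to 608821 over the Lats2-/- and 370728 to 631841 over the Lats2+/+ extracts. The median ratio of the fibroblast markers was 0.15, 2.39 and -1.13 in litters 112, 116 and 121. In litter 121, where Figf and Angpt2 were at least 2-fold lower, 10 of the 11 were below 0. Beside Pdgfra, given above, they ranged from Thy1 at -3.65, S100a4 at -3.61 and Col3a1 at -3.40 to Col1a2 at -0.71, Col5a1 at -0.68 and Vim at -0.06, and Fn1 was at 0.07. In litter 116, where Hgf was detected in the Lats2-/- extract, 9 of the 11 were above 0, up to Dcn at 6.19 and Lum at 5.43, while Vim was at -1.18 and S100a4 at -0.97. Of 13 endothelial markers 6 had a tested probe, and Pecam1, Cdh5, Cldn5 and Emcn had none; the summed signal of the 13 was 1265 to 3078 in Lats2-/- and 2203 to 4255 in Lats2+/+ extracts. These sums add signals of different probes, and are a description only. Flt1 ranged over levels of 7.70 to 11.62, while Tek and Sox17 stayed near background, between 6.35 and 6.66. Of 11 mural cell markers, Pdgfrb among them, 7 were tested, and 6 had a mean ratio above 0. Rgs5, Abcc9, Kcnj8 and Des had no tested probe. The exception among the means was Cspg4, which encodes the pericyte proteoglycan NG2, with -2.10, -4.71 and -4.53. The litters differed: 3, 6 and 4 of the 7 ratios were above 0 for litters 112, 116 and 121, with medians of -0.06, 0.88 and 0.0002. Acta2 had -0.44, 3.15 and 0.49, Anpep 0.52, 2.26 and -0.12, and Mcam -1.28, 1.78 and 2.32. The Mcam signal of the Lats2+/+ extract of litter 116 was not well above background. The summed signal of the mural markers was 86505 to 179138 in Lats2-/- and 21154 to 124536 in Lats2+/+ extracts. Acta2, at levels of 13.38 to 17.22, weighs most in each of these sums. For leukocytes 3 of 8, for epithelium 3 of 8 and for neural cells 4 of 8 markers were tested. In litter 121, 2 of the 4 tested neural markers were above 0 and 2 below. Nes had a ratio of 4.05 there, at levels of 12.46 in Lats2-/- and 8.41 in Lats2+/+, while Tubb3 had 0.39 and Mbp -1.31. The summed neural signal of that litter was 7958 against 2961, and Nes made up most of it in the Lats2-/- extract. In the other 4 extracts the sum was 2305 to 3781. Of the 3 tested leukocyte markers, 1 had an unadjusted p under 0.05 in limma, against 7.65% of all genes. That was Cd14, with -0.63, -1.65 and -0.71 (adjusted p = 0.716). Cd68 had 0.39, -0.35 and -0.17, and Csf1r had 0.06, 0.34 and -0.02. The summed signal of the leukocyte markers was 621 to 1086 in Lats2-/- and 718 to 2297 in Lats2+/+ extracts, and that of the epithelial markers 616 to 667 in Lats2-/- and 588 to 667 in Lats2+/+ extracts. The part of any of these markers in the ratios of the 10 genes was not tested, and in such cultures fewer cells of a type and less RNA per cell cannot be told apart. Of 28 tested proliferation genes, 27 had a mean ratio below 0, against 6961 of all 14791 genes, with medians of -0.57, -0.56 and 0.18 in litters 112, 116 and 121. The same sign in all 3 litters was seen for 3 of the 28, against 30.1% of genes. An unadjusted p under 0.05 in limma was seen for 2 of the 28, against 7.65%.

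**Figure D4:**
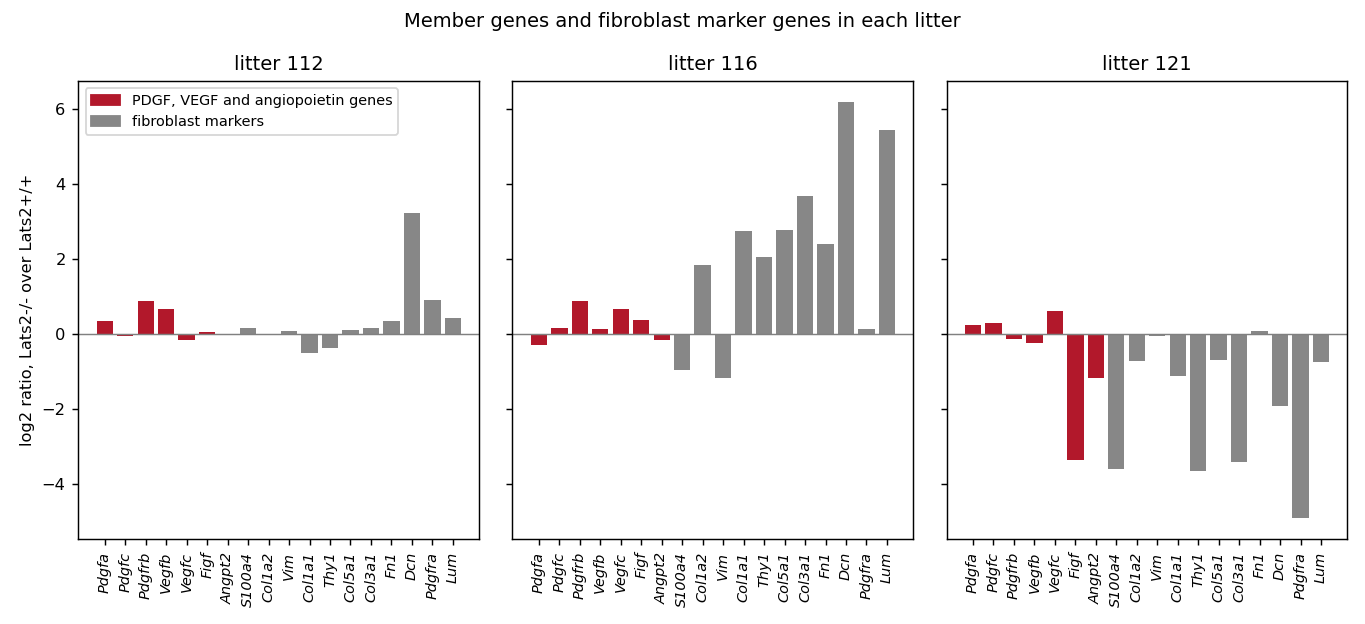
Log2 ratios (Lats2-/- over Lats2+/+, y axis) of the 7 tested member genes (red bars) and of 11 fibroblast markers (grey bars) in each litter. In litter 116 the markers have a median of 2.39 while the members lie between -0.29 and 0.88, and in litter 121 Figf, Angpt2, Thy1, S100a4, Col3a1 and Pdgfra are all below -1.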

How the data were processed

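Total RNA of Lats2-/- and Lats2+/+ MEFs was hybridised by the authors to 8 two-colour Agilent whole mouse genome arrays. Feature Extraction was version 10.7.3.1 per the file headers and 10.5.1.1 in the submitters' processing notes. The deposited scanner files hold, on a linear scale, each spot's mean intensity and local background intensity, and Agilent's background-subtracted, dye-normalized signals. The deposited files and value table also hold log10 ratios, in the table as Lats2-/- over Lats2+/+ on every array.

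Mean intensities were corrected with normexp (offset 50) in limma 3.58.1 (R 4.3.3), 860 outlier spots were left out, and arrays were normalized by loess. The log2 ratios computed from the deposited intensities were turned to Lats2-/- over Lats2+/+ and averaged per probe and litter. Levels followed loess and Aquantile between arrays. Litter ratios were tested against 0, two-sided, with lmFit and eBayes and Benjamini-Hochberg adjustment over 22642 tested probes. An extract counted as well above background where most of its arrays did. At least N-fold values set the brighter genotype's mean log2 signal against a floor for the dimmer one, which on each array was the dimmest signal still well above background, or the probe's own signal where that was higher. Where the probe's own signal was higher on every array, the value is the measured mean ratio, and a single array can lie below it.

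A gene's main probe was its brightest tested one. Named were every member probe, listed pathway genes with an unadjusted p under 0.05 or a 2-fold change in the same direction in all litters, Lats2, and the 5 probes nearest to the member of smallest p, of which 1 is not reported here. Marker genes, the members' receptors, Vegfa, Pdgfd, Mst1, Pdgfrl and Ccbe1 were named after their values were seen. The members and lists were chosen with earlier results of these data known. The litter supplies the pairing, since both extracts of a litter share its arrays. Each litter gave 1 culture per genotype, so p-values measure the spread between 3 litters, and the number of arrays limits the precision. Alternatives covered the background correction, normalization, filter, blocks, dye, litters left out and the methods' t-test. The test was checked on simulated data.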

Additional observations from a re-analysis of the deposited data

How the results depend on the processing

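All 7 tested genes kept an adjusted p above 0.05 under every alternative that gave a value. Angpt2 gave none where all 6 extracts had to be above background. Leaving out each litter in turn moved the mean log2 ratio of Pdgfa between -0.031 and 0.28, of Pdgfc between 0.054 and 0.22, of Pdgfrb between 0.36 and 0.88, of Vegfc between 0.23 and 0.64, of Vegfb between -0.064 and 0.40, of Figf between -1.64 and 0.21, and the number of these genes with an unadjusted p under 0.05 between 0 and 1 (Vegfc without litter 112, Pdgfrb without litter 121). Pdgfa and Vegfb turned negative without litter 112 and Figf turned positive without litter 121. Over all tested probes, 1555 had an unadjusted p under 0.05, 1337 by the methods' t-test, which left 0 after adjustment as well. The number was 2574 with no filter on dim probes and 553 in a fit with no replicate block, where the pairing by litter is dropped. Treating the 8 arrays as samples with litter as a random block gave 3004, with a dye term added 2851, and with slide as the random block 4044, of which 342, 206 and 720 passed the adjusted threshold and which gave 1 (Vegfc), 2 (Pdgfrb, Vegfc) and 2 (Figf, Angpt2) member genes at an unadjusted p under 0.05. These fits count arrays of the same extracts as partly independent. With slide as the block, Pgf (0.50) and Gab1 (0.53) passed the adjusted threshold. Agilent's processed signals and the deposited value table moved the mean of Angpt2 from -0.45 to -1.84, of Pgf from 0.48 to 1.14 and of Gab1 from 0.49 to 0.79, and an offset of 16 gave -0.68, 0.72 and 0.61. The mean of Angpt2 without litter 121 was -0.084. Plcg1 lost its unadjusted p under 0.05 with the processed signals, the deposited value table, median centring, no replicate block and the methods' t-test. Gab1 lost it with the last 2, Angptl2 with median centring, no filter and the last 2, and Pgf without litter 121. Quantile normalization changed no level of the 10 tested member probes by more than 0.062 log2 units. Signals near background limit Pdgfb, Angpt1, Angpt2 and Hgf. Pgf was dim as well, and the size of its mean depended on the background correction.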
